A study of Homo sapiens with 12 samples.

Results

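Knockdown of DOT1L in senescent fibroblasts that carry oncogenic RAS was followed across all genes by setting the 3 RAS/shDOT1L libraries against the 3 RAS libraries. These are 6 of the 12 libraries of an mRNA sequencing series in IMR90, a diploid fibroblast line of human lung. RAS cells were infected with pBABE-HRASG12V, a retrovirus that expresses the constitutively active HRAS oncogene. RAS/shDOT1L cells carried the same virus and pLKO.1-shDOT1L, a lentivirus that expresses a short hairpin against DOT1L. Control cells carried pBABE-Control, and their 3 libraries are given here only as levels beside the other groups. All cells were kept at 2% oxygen, and the labels give selection in puromycin at 3 µg/mL for 4 days. The methods differ from the labels in the dose and length of selection after pBABE infection. Every RAS/shDOT1L library has the same label, pLKO.1-shDOT1L, which does not say which of the DOT1L hairpins listed in the methods was used. The labels of the RAS libraries name no control hairpin, so the hairpin and its vector cannot be told apart from the loss of DOT1L. The sources differ on whether replicates were separate cultures or repeats of 1 experiment, so p-values reflect how far libraries of a group spread, which may be technical alone. The labels give no batch.

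DOT1L places methyl groups on lysine 79 of histone H3, a mark found over the bodies of transcribed genes. Oncogenic RAS drives normal fibroblasts into senescence, a lasting arrest of proliferation in which cells enlarge, expand their lysosomes, remodel the matrix around them and secrete cytokines and proteases, the senescence-associated secretory phenotype (SASP). The cytokines of the SASP are its best-known part. The genes described here are mainly the others: lipid synthesis, the contractile cytoskeleton, ribosomes and mitochondria, lysosomes, matrix and growth factor signalling.

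The knockdown was visible in every library. DOT1L (chr19:2163933-2232578 in GRCh38) was at 82.2, 82.7 and 88.4 CPM (the gene's count scaled to the size of its library) in the RAS libraries and at 10.2, 11.4 and 11.4 CPM in the RAS/shDOT1L libraries. Control libraries held 33.5, 29.1 and 32.5 CPM, so the knockdown brought DOT1L below the control level. The log2 change from RAS to RAS/shDOT1L was -2.92 ± 0.11 (SE; edgeR quasi-likelihood test, adjusted p = 1.25e-21, n = 3 libraries a group, as in every comparison below). HRAS (chr11:532242-537321), whose counts hold reads of the genome's gene and of the virus, moved with it. It stood at 492, 511 and 506 CPM in RAS and at 261, 287 and 278 CPM in RAS/shDOT1L, with no overlap, and at 82.9, 86.4 and 88.5 CPM in control. HRAS thus fell 1.80-fold (log2 change -0.85 ± 0.049, adjusted p = 3.87e-16), to a level still above every control library. Adjusted for transcript GC content (below), the HRAS change was -0.39 (adjusted p = 3.27e-08). The part of lower HRAS in any result that follows was not tested, because every RAS/shDOT1L library had it.

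Total counts lay between 16128055 and 18463847 in the 6 libraries. The defining genes of a fibroblast (COL1A1, COL1A2, VIM, THY1, DCN) were expressed in all 6. The RAS libraries differed from the others in base composition: the highest decile of genes (1 of 10 equal bins) by transcript GC lay 0.72 to 0.74 log2 units above the lowest decile relative to the mean of all libraries, against -0.14 to -0.072 in RAS/shDOT1L and -0.54 to -0.47 in control. Accordingly, the median log2 change from RAS to RAS/shDOT1L fell from 0.42 in the most AT-rich decile of genes to -0.44 in the most GC-rich decile. Whether this trend arose in the cells or in the library preparation was not tested. A second fit therefore removed it with an offset for each library along transcript GC, and the values of this fit are called GC-adjusted. With the offset the medians of the deciles lay between -0.0055 and 0.047. The shortest decile of transcripts then stood at 0.35 and the longest at -0.11, so a further fit adjusted for GC and length together.

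**Figure D1:**
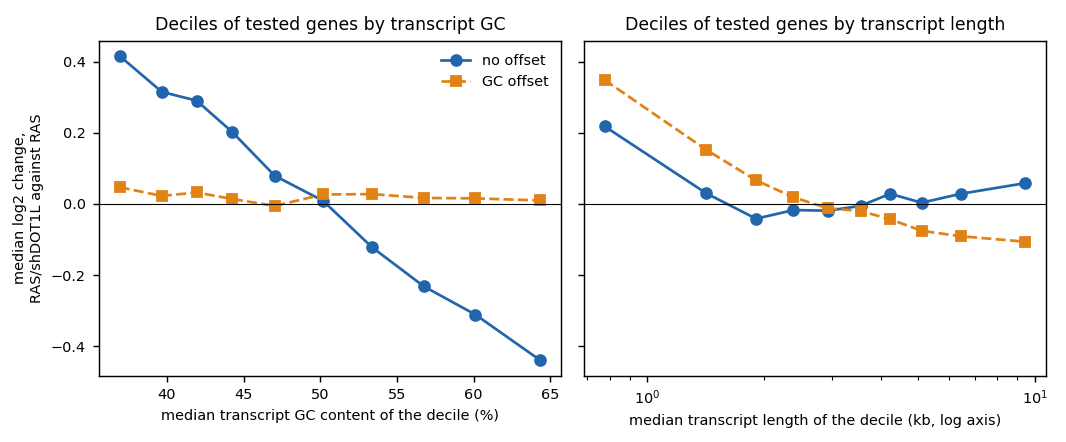
Median log2 change from RAS to RAS/shDOT1L (y axis) in deciles of the tested genes ordered by transcript GC content in percent (left) and by transcript length in kb on a log axis (right). Blue circles are the fit with no offset, which falls from 0.42 to -0.44 along GC, and orange squares the GC-adjusted fit, which is flat along GC and falls from 0.35 to -0.11 along length.

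Between RAS and RAS/shDOT1L, 52.7% of the tested genes changed, about equally in both directions. Of the 48162 identifiers 23194 had no count in any library of the series, and 13398 genes passed the low-count filter and were tested. Of these, 3524 rose (26.3%) and 3534 fell (26.4%) from RAS to RAS/shDOT1L at an adjusted p under 0.05. Most changes were modest, with a median of 1.59-fold among the genes that passed. A change of over 1.5-fold, tested as such with glmTreat, was found for 1118 higher (8.34%) and 1155 lower (8.62%) genes. These are bulk libraries, in which fewer cells of a kind and less RNA per cell cannot be told apart. The GC-adjusted fit called 3182 genes higher (23.7%) and 3082 lower (23%), or 46.8% of genes in all, of which 852 (6.36%) and 856 (6.39%) were over 1.5-fold. Both fits gave the same call for 2537 higher (18.9%) and 2522 lower (18.8%) genes, and for 704 (5.25%) and 713 (5.32%) of over 1.5-fold, while 1917 calls were lost with the offset and 82 turned round. The values of the 6 libraries did not overlap for 3835 higher (28.6%) and 4026 lower (30%) genes. Chromosome 19, which holds many GC-rich genes, shows how much the offset matters: 379 of its 938 tested genes were lower, with a median log2 change of -0.28 that became -0.047 when GC-adjusted. Genes named below passed in the fit without offset unless stated, and their GC-adjusted value is given where it moves the log2 change by over 1.5 times or where a result turns on it. Counts over a gene list are over the genes that passed the filter, with the number listed where it is well above that. Each such count is to be read beside the shares of all tested genes, 26.3% higher and 26.4% lower, or 23.7% and 23% GC-adjusted. A gene that passed only through the group where it is high had to differ.

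Many of the largest rises brought genes that were low in RAS back to, or past, their control level. PLCB4, a phospholipase C that acts downstream of G proteins (chr20:9067825-9504593), was at 9.95, 12.5 and 6.32 CPM in RAS and at 132, 142 and 137 CPM in RAS/shDOT1L. Its log2 change of 3.85 ± 0.12 was the largest of the 15 genes chosen by size (GC-adjusted 3.58), and control libraries held 81.9, 91.0 and 93.0 CPM. MEST, an imprinted gene of the hydrolase family, went from 14.6, 20.8 and 23.2 to 254, 275 and 255 CPM (log2 change 3.76 ± 0.095), with 232 ± 11.05 CPM in control (mean ± SD). STXBP6, a regulator of SNARE-mediated membrane fusion, rose from 1.39 ± 0.961 to 19.4 ± 3.11 CPM and stood at 24.3 ± 0.724 CPM in control. DYSF, a membrane repair protein of muscle, and SYNPO2L, an actin-binding protein, rose by 2.95 and 2.87 log2 units and also ended near control.

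Others of the 15 exceeded both groups. SKP2, the substrate receptor of a ubiquitin ligase that degrades the CDK inhibitor p27, held 2.92, 3.82 and 4.02 CPM in RAS and 39.6, 46.7 and 50.03 CPM in RAS/shDOT1L, while control held 10.9, 7.65 and 8.24 CPM. Every RAS/shDOT1L library was thus above every RAS and control library (log2 change 3.68 ± 0.16, GC-adjusted 3.43). APLN, the peptide ligand of the apelin receptor, rose from 12.5 ± 2.54 to 139 ± 8.93 CPM against 17.1 ± 2.04 CPM in control. RAS/shDOT1L was also above both other groups for the sterol enzymes MSMO1 and ACAT2 (below), for RPIA of the pentose phosphate pathway (2.33 ± 0.530 to 16.0 ± 1.17 CPM, control 1.48 ± 0.389), for CRABP2, which carries retinoic acid (3.03 ± 0.538 to 20.7 ± 2.25 CPM, control 12.2 ± 2.13), and for the keratin KRT7. CLIC3, USP44 and ANKRD46 completed the 15, with log2 changes of 2.90, 2.63 and 2.59. All 15 were also called higher in the GC-adjusted fit and did not overlap, as the choice of the genes required.

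**Figure D2:**
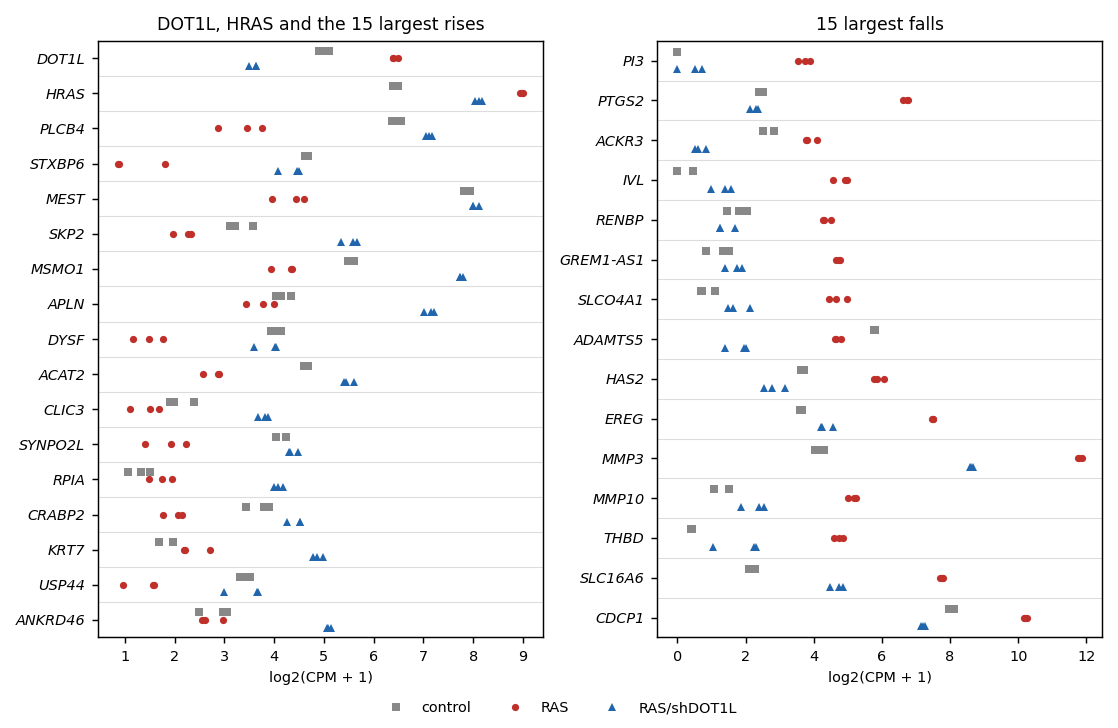
Levels of DOT1L, HRAS and the 15 genes with the largest rises (left) and of the 15 with the largest falls (right), as log2(CPM + 1) on the x axis, with 1 symbol for each control (grey squares), RAS (red circles) and RAS/shDOT1L (blue triangles) library. RAS and RAS/shDOT1L symbols do not overlap for any gene shown, which the choice of the rises and falls required. For MMP3 and EREG the RAS/shDOT1L libraries remain above control, while for ADAMTS5 they lie below it.

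By gene list, the rises grouped into sterol synthesis, the contractile cytoskeleton and ribosomal proteins. The falls grouped into lysosomes, mitochondrially encoded genes, proteases, basement membrane, proteoglycans, cell division, NOTCH, cytokines and NF-kB. The plot of list medians gives 28 of the 64 lists examined. Over all tested genes the median log2 change was 0.028, or 0.021 GC-adjusted.

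**Figure D3:**
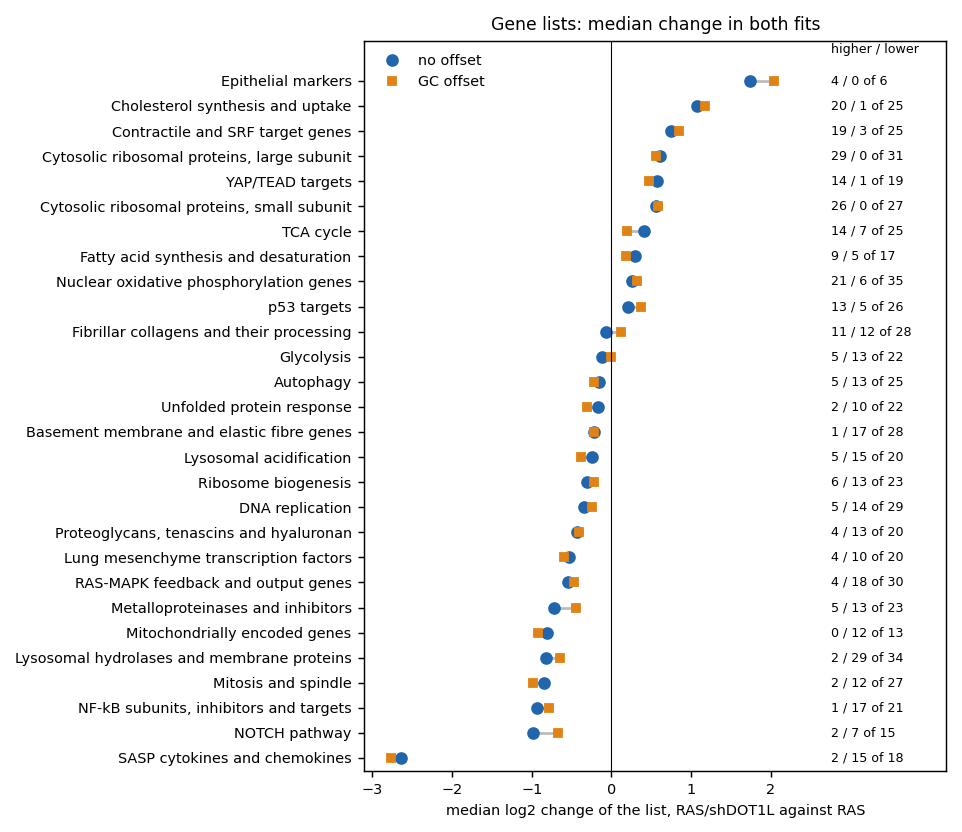
Median log2 change from RAS to RAS/shDOT1L (x axis) of the tested genes in 28 lists, without offset (blue circles) and GC-adjusted (orange squares), with the number called higher and lower of those tested at the right. Sterol synthesis (1.07) and contractile genes (0.75) lie to the right of 0, lysosomal hydrolases (-0.82) and SASP cytokines (-2.64) to the left, and glycolysis moves to 0 with the offset.

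Cholesterol synthesis rose along nearly its whole length. Of 26 listed genes of cholesterol synthesis and uptake, 25 were tested, and 20 were higher and 1 was lower, against 26.3% and 26.4% of all tested genes. The median log2 change was 1.07 (1.17 GC-adjusted, 1.13 with GC and length), and 14 were over 1.5-fold higher. MSMO1, a C4-methylsterol oxidase, was at 19.2, 19.4 and 14.2 CPM in RAS and at 211, 211 and 220.0 CPM in RAS/shDOT1L, with 47.4, 46.9 and 43.8 CPM in control. The RAS/shDOT1L libraries lay above both other groups (log2 change 3.62 ± 0.088, adjusted p = 2.67e-26). FDFT1, which makes squalene, went from 134 ± 5.34 to 299 ± 3.57 CPM, while control stood at 136 ± 7.28 CPM. ACAT2, the cytosolic thiolase that feeds the pathway, went from 5.89 ± 0.824 to 43.7 ± 3.49 CPM, with 24.2 ± 0.779 CPM in control. The 1 lower gene was SCAP, the escort protein that senses sterol for the transcription factor SREBP (138 ± 5.53 to 88.8 ± 8.54 CPM, log2 change -0.61 ± 0.072). Its change was -0.23 GC-adjusted and did not pass with GC and length. SREBF2, the gene of the SREBP that drives this pathway, was among the 20 with a log2 change of 0.46 (0.74 GC-adjusted), and is named for its role after its values were seen.

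The neighbouring lipid genes moved less uniformly. In fatty acid synthesis and desaturation 9 of 17 tested genes were higher and 5 lower. The stearoyl-CoA desaturase SCD went from 45.7 ± 0.264 to 160.2 ± 6.93 CPM (log2 change 1.83 ± 0.072), the acyl-CoA ligase ACSL3 rose by 1.18, the desaturase FADS2 by 0.86 and ATP citrate lyase ACLY by 0.80 log2 units. SREBF1, which encodes the SREBP of fatty acid genes, fell from 121 ± 1.07 to 64.1 ± 3.08 CPM (log2 change -0.90 ± 0.072, GC-adjusted -0.45). Genes of cholesterol efflux and targets of the oxysterol receptor LXR were lower in 6 of 13 cases and higher in 2. APOE, the lipoprotein that accepts effluxed cholesterol, fell from 44.7 ± 7.10 to 16.1 ± 2.39 CPM, and the sterol transporter ABCG1 from 27.4 ± 1.44 to 11.2 ± 2.93 CPM. NR1H2, which encodes LXR-beta, had a log2 change of -0.96 ± 0.063 (GC-adjusted -0.59). SOAT1, which esterifies cholesterol for storage, rose by 1.68 ± 0.12 log2 units. Among genes of fatty acid oxidation, which split 7 higher to 7 lower, CPT1A, the carnitine transferase that admits fatty acids to mitochondria, fell by 4.07-fold from 39.2 ± 4.90 to 9.49 ± 1.03 CPM.

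**Figure D4:**
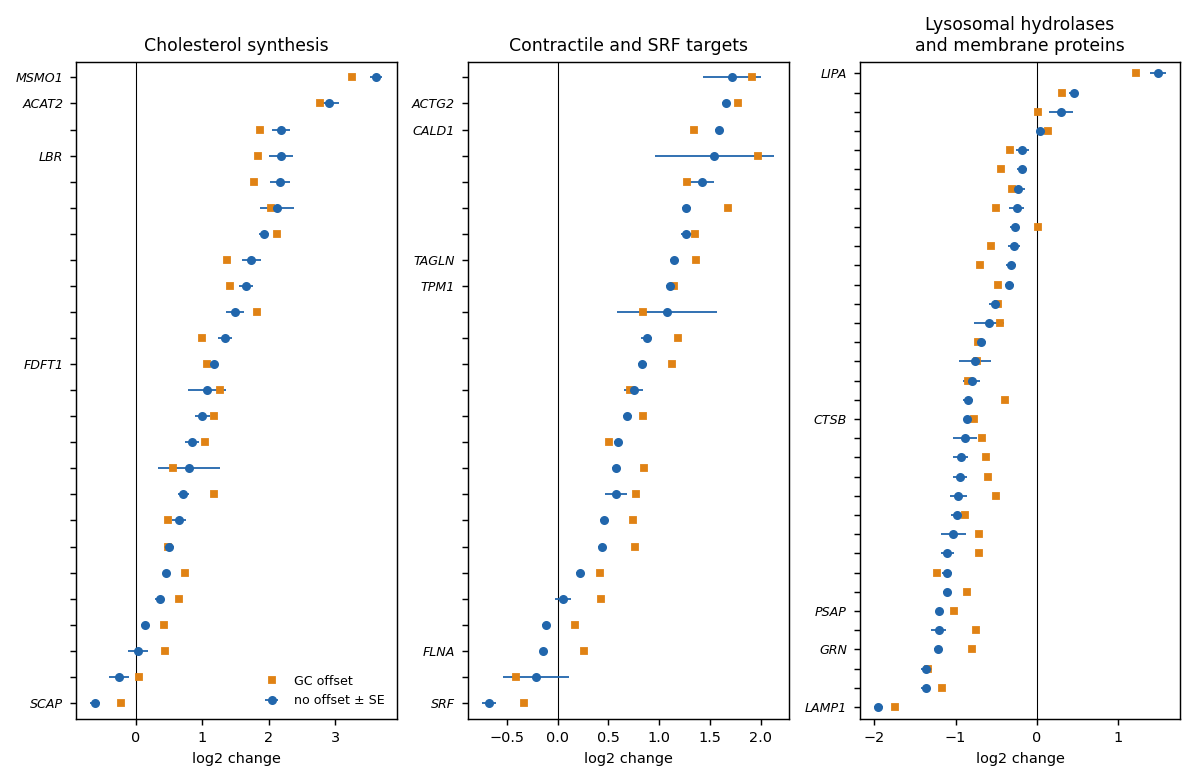
Log2 change from RAS to RAS/shDOT1L (x axis) of each tested gene of cholesterol synthesis (left), of the contractile and SRF target list (middle) and of the lysosomal hydrolases and membrane proteins (right), without offset as blue circles with bars of 1 SE and GC-adjusted as orange squares, in order of the change and with names for some of the genes described in the text. Nearly all circles lie right of 0 in the first and second panels and left of 0 in the third, where LIPA is the clear exception at 1.49.

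The contractile cytoskeleton rose as a group. Of 25 tested genes of smooth muscle contraction and targets of serum response factor (SRF), 19 were higher and 3 lower (median log2 change 0.75, GC-adjusted 0.84), and 11 were over 1.5-fold higher. ACTG2, the smooth muscle gamma actin, was at 525, 518 and 498 CPM in RAS and 1669, 1581 and 1554 CPM in RAS/shDOT1L, and control stood at 1327 ± 6.52 CPM. With no overlap, its log2 change was 1.66 ± 0.041. CALD1, which encodes the actin regulator caldesmon, rose from 537 ± 13.3 to 1594 ± 38.7 CPM, TAGLN (transgelin) from 924 ± 37.8 to 2017 ± 52.7 CPM and TPM1 (tropomyosin) from 896 ± 8.45 to 1898 ± 42.5 CPM. The gene of the transcription factor itself, SRF, went the other way, from 155 ± 1.36 to 95.5 ± 4.81 CPM (log2 change -0.68 ± 0.065, GC-adjusted -0.33). FLNA, the actin crosslinker filamin A, was slightly lower without offset (-0.15) and higher GC-adjusted (0.26), so its direction depended on the fit.

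Targets of YAP, a coactivator that responds to cell stretch and stiffness, and of its partner TEAD transcription factors rose with them. Of 19 tested, 14 were higher and 1 was lower (median log2 change 0.57, GC-adjusted 0.47). ANKRD1, a standard readout of YAP, went from 14.2, 18.6 and 15.1 CPM in RAS to 66.8, 66.8 and 72.9 CPM in RAS/shDOT1L, a log2 change of 2.13 ± 0.11. The matricellular protein gene CCN1 rose by 0.89 ± 0.048, the ecto-nucleotidase NT5E by 1.09 ± 0.040 and the receptor tyrosine kinase AXL by 0.96 ± 0.050 log2 units. GAS6, the ligand of AXL, rose too, from 382 ± 13.2 to 836 ± 27.3 CPM. ARHGEF17, a guanine nucleotide exchange factor, was the lower member (-0.69 ± 0.067, GC-adjusted -0.27).

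Genes of cell adhesion split. FERMT2 (kindlin-2), which activates integrins from inside the cell, rose from 48.0 ± 0.965 to 184 ± 9.61 CPM, and the laminin receptor subunit ITGA6 from 19.6 ± 1.80 to 83.6 ± 1.45 CPM. Talin, the partner of kindlin encoded by TLN1, fell by 2.04-fold from 1571 ± 46.6 to 759 ± 40.0 CPM, and the collagen receptor subunit ITGA11 had a log2 change of -0.88 ± 0.055. Of 20 tested integrin and adhesion genes, 5 were higher and 9 lower.

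Ribosomal proteins of the cytosol rose almost without exception. Of 31 tested genes of the large subunit, 29 were higher and none was lower, and of 27 of the small subunit, 26 were higher and none was lower. The median log2 changes were 0.61 and 0.56. They were 0.55 and 0.58 GC-adjusted, and 0.34 for both with GC and length, where 28 and 23 were higher. Transcripts of ribosomal protein genes are short. RPL7 was at 350.3, 348 and 359 CPM in RAS and 768, 723 and 697 CPM in RAS/shDOT1L (log2 change 1.07 ± 0.046), and RPS7 rose from 408 ± 13.4 to 733 ± 8.25 CPM. Both were above control as well, at 423 ± 19.0 and 488 ± 12.7 CPM. Reads of ribosomal protein genes can be shared with their many processed pseudogenes, and how the counting treated them is not stated.

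Translation factors followed in part, with 14 of 23 tested genes higher and 3 lower. EEF1A1, the elongation factor that brings aminoacyl-tRNA to the ribosome, rose from 7811 ± 189 to 12859 ± 95.1 CPM (log2 change 0.74, GC-adjusted 0.46), and TPT1, the translationally controlled tumour protein, from 1462 ± 24.5 to 2656 ± 92.2 CPM. PABPC1, the poly(A)-binding protein, had a log2 change of 0.78 ± 0.043, and the scaffold of the cap complex EIF4G1 one of -0.51 ± 0.043 (GC-adjusted -0.27). Genes of ribosome biogenesis were lower on balance. Of 23 tested nucleolar and related genes 6 were higher and 13 lower (2 and 12 GC-adjusted), with a median log2 change of -0.31 (GC-adjusted -0.22). NOLC1, a nucleolar phosphoprotein, fell by 2.46-fold from 63.3 ± 8.26 to 25.4 ± 2.19 CPM, and the rRNA methyltransferase NOP2 from 67.0 ± 3.20 to 33.4 ± 2.30 CPM.

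Mitochondrial and nuclear genes of the respiratory chain moved in opposite directions on balance. Of the 13 protein-coding genes of mitochondrial DNA, 12 were lower and none was higher in each of the 3 fits, with a median log2 change of -0.81 (GC-adjusted -0.93). MT-CO1, the catalytic subunit of cytochrome c oxidase, took 11197, 10539 and 10724 CPM in the RAS libraries and 6509.5, 5919 and 5812 CPM in the RAS/shDOT1L libraries, against 7289 ± 394 CPM in control. MT-CYB of complex III had a log2 change of -1.12 ± 0.049, MT-CO3 one of -0.99 ± 0.048 and MT-ATP6 of the ATP synthase one of -1.01 ± 0.048. Together, mitochondrial transcripts made up 3.64 to 3.87% of counts in RAS, 2.12 to 2.44% in RAS/shDOT1L and 2.31 to 2.54% in control. The RAS libraries thus stood apart from both other groups in this share. Fewer mitochondrial genomes and less transcript from each cannot be told apart in these data.

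Of 35 tested nuclear genes of oxidative phosphorylation, 21 were higher and 6 lower (median log2 change 0.26, GC-adjusted 0.32). With GC and length 15 were higher and 5 lower (median 0.15). Without offset 7 were over 1.5-fold higher and none lower, and none passed that test in both fits. The ATP synthase subunits ATP5F1C (141 ± 3.05 to 246 ± 13.1 CPM) and ATP5PB (134 ± 7.46 to 225 ± 7.32 CPM) rose, by 0.82 and 0.76 log2 units (GC-adjusted 0.54 and 0.47). COX7C and NDUFA4 of the respiratory complexes rose by 0.94 and 0.80 (GC-adjusted 0.69 and 0.51). ATP5F1B, the catalytic beta subunit, fell, with a log2 change of -0.51 ± 0.041. Of the TCA cycle, 14 of 25 genes were higher and 7 lower, with a median log2 change of 0.41 that was 0.20 GC-adjusted and 0.094 with GC and length. These 25 include IDH1, the cytosolic isocitrate dehydrogenase, which lies outside the cycle itself and rose from 49.97 ± 3.07 to 119 ± 4.58 CPM. Fumarase (FH) rose by 1.02 ± 0.090 and the succinate dehydrogenase subunit SDHD by 1.04 ± 0.13 log2 units.

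**Figure D5:**
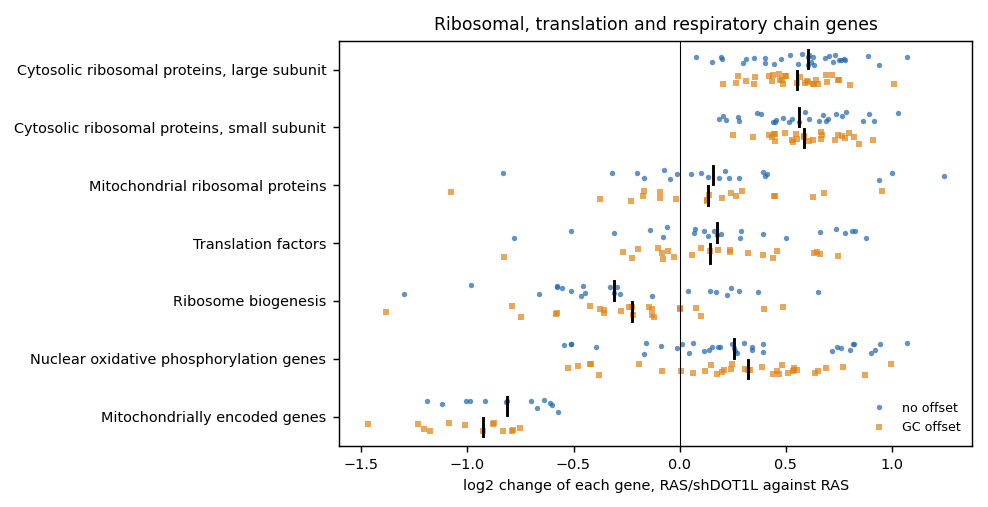
Log2 change from RAS to RAS/shDOT1L (x axis) of each tested gene in 7 lists of translation and respiration, without offset (blue circles) and GC-adjusted (orange squares), with a black bar at each median. Cytosolic ribosomal proteins lie right of 0 (medians 0.61 and 0.56) and mitochondrially encoded genes left of 0 (-0.81).

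Serine and one-carbon metabolism held large single rises. PSAT1, the aminotransferase of serine synthesis, was at 8.04, 10.9 and 9.89 CPM in RAS and at 54.2, 48.4 and 51.5 CPM in RAS/shDOT1L, beside 35.2 ± 0.667 CPM in control. Its log2 change was 2.44 ± 0.13. PHGDH, the first enzyme of that route, rose from 24.8 ± 1.72 to 53.8 ± 6.09 CPM, and the mitochondrial folate enzyme MTHFD2 by 1.05 ± 0.10 log2 units. Of 20 tested genes of the pentose phosphate and one-carbon routes 8 were higher and 4 lower. Glycolysis had no direction that held: 5 of 22 genes were higher and 13 lower without offset, and 9 and 7 GC-adjusted. Within it the lactate exporter SLC16A3 fell by 5.44-fold, from 1409.8, 1439 and 1458 to 253, 256 and 272 CPM, and the glucose transporter SLC2A3 rose from 110.2 ± 5.22 to 274 ± 11.7 CPM.

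Lysosomal genes fell nearly throughout. All 34 listed lysosomal hydrolases and membrane proteins were tested, and 29 were lower and 2 higher (26.4% and 26.3% of all genes), with 18 over 1.5-fold lower. The median log2 change was -0.82, and stayed at -0.65 GC-adjusted and -0.57 with GC and length, again with 29 lower in each fit. LAMP1, the main glycoprotein of the lysosomal membrane (chr13:113297239-113323672), was at 720.3, 763 and 782 CPM in RAS and at 195, 180.2 and 203 CPM in RAS/shDOT1L. Control libraries held 636, 615 and 614 CPM, so LAMP1 fell below control too (log2 change -1.95 ± 0.051, GC-adjusted -1.75, adjusted p = 1.43e-25). The list as a whole ended near control. Its summed level was 14459 to 15040 CPM in RAS, 8620 to 8755 CPM in RAS/shDOT1L and 8606 to 8688 CPM in control. PSAP, the precursor of the saposins that help degrade sphingolipids, fell from 1912 ± 42.0 to 822 ± 28.6 CPM. The cysteine protease CTSB went from 5226 ± 92.3 to 2852 ± 28.8 CPM and progranulin (GRN) from 1074 ± 38.3 to 456 ± 19.6 CPM (log2 change -1.22, GC-adjusted -0.80). LIPA, the acid lipase that frees cholesterol from lipoproteins (26.2 ± 1.90 to 72.9 ± 1.43 CPM, log2 change 1.49 ± 0.096), was 1 of the 2 higher genes.

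Lysosomal genes are known to share a promoter element, an E-box read TCACGTG, that is bound by the transcription factors TFEB and TFE3. In the RefSeq promoter windows (250 bases before to 50 after the start, build GRCh38.p14), TCACGTG stood on either strand in 5.87% of the 10248 tested genes with a window, in 2.53% of those over 1.5-fold higher in both fits and in 6.65% of those over 1.5-fold lower in both fits. Of 21 lysosomal genes with a window, 6 held it (28.6%), but so did 3 of 20 genes of cholesterol synthesis and uptake (15%), a list that rose, and none of 20 contractile genes or 14 SASP cytokines. All 6 lysosomal genes with it were over 1.5-fold lower without offset, and 3 of them in both fits, with a median log2 change of -1.01 (GC-adjusted -0.79). Of the 15 without it, 12 were lower, 5 of them over 1.5-fold without offset and 3 in both fits, with a median of -0.52 (GC-adjusted -0.48). A match is a description of these letters and not a bound site. The 6 genes were thus chosen by the element, after their values were seen. The 250 bases upstream of their starts are printed to show where the element lies, with every TCACGTG, or its reverse complement CACGTGA, in capitals and the gene's strand read 5′ to 3′.
LAMP1, chr13:113296989-113297238, plus strand: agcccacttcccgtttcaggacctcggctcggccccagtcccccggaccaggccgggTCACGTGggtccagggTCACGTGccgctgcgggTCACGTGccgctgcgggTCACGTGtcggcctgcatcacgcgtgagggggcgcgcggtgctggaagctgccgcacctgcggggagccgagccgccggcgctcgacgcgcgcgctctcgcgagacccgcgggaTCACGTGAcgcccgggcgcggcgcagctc
CTSA, chr20:45891085-45891334, plus strand: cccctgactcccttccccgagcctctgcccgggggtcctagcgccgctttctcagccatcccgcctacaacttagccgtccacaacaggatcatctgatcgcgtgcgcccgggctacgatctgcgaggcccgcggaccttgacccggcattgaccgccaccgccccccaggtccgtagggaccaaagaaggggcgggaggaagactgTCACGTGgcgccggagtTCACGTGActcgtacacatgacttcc
CTSD, chr11:1763928-1764177, minus strand: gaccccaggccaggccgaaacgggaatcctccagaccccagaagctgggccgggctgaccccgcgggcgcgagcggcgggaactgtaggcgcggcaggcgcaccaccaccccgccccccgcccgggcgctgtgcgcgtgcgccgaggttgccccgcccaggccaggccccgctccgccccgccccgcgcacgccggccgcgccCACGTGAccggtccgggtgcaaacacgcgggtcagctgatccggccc
CTSF, chr11:66568607-66568856, minus strand: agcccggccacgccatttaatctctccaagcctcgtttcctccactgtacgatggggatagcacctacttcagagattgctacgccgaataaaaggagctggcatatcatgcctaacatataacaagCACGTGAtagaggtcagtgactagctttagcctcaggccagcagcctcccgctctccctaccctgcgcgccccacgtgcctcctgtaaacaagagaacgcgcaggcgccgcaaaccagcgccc
GAA, chr17:80101331-80101580, plus strand: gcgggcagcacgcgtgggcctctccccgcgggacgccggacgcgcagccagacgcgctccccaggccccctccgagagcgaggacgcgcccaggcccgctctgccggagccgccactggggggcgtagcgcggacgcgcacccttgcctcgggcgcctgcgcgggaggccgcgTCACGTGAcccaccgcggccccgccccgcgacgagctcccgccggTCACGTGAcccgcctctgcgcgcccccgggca
NEU1, chr6:31862822-31863071, minus strand: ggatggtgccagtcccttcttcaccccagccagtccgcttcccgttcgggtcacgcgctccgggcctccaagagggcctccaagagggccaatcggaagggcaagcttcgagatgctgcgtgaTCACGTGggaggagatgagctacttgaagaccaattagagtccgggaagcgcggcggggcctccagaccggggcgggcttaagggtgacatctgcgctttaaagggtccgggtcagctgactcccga
LAMP1 holds 5 copies of the core CACGTG in this stretch, CTSA, GAA and CTSF hold 2 each, and CTSD and NEU1 hold 1. The copies overlap where the element reads TCACGTGA, which matches on both strands. The shorter core CACGTG, which lies inside the element, stood in 10.02% of all windows, in 7 of the 21 lysosomal ones and in 4 of the 20 of cholesterol synthesis. The lysosomal gene with the core and not the element was CD63, whose log2 change of 0.037 did not pass. Of 3 other elements searched on both strands, the AP-1 site TGANTCA stood in 2 lysosomal windows (4.80% of all), and the C/EBP site (1.77% of all) and the sterol regulatory element (0.0878% of all) in none. The sterol element stood in 1 of the 20 windows of cholesterol synthesis, that of SREBF2.

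Acidification and autophagy genes were also lower on balance. Of 20 tested subunits and partners of the vacuolar proton pump, 15 were lower and 5 higher (median log2 change -0.24), and 12 and 3 GC-adjusted (median -0.39). The chloride-proton exchanger CLCN7 fell from 193 ± 5.35 to 63.4 ± 11.3 CPM, and the pump subunit ATP6V1B2 from 169 ± 5.50 to 78.7 ± 3.29 CPM. Among 25 autophagy genes 13 were lower and 5 higher (12 and 3 GC-adjusted). MAP1LC3B, the LC3 protein that coats autophagosomes, fell from 285, 307 and 304 CPM in RAS to 42.0, 42.4 and 42.1 CPM in RAS/shDOT1L, well under the 220.3 ± 4.48 CPM of control. Its log2 change of -2.81 ± 0.064 (GC-adjusted -3.08) compares with a list median of -0.16. The cargo receptor SQSTM1 (p62) had a log2 change of -1.12 ± 0.044, the initiating kinase ULK1 one of -0.97 ± 0.081 (GC-adjusted -0.52) and the LC3 protease ATG4B one of -0.96 ± 0.085. KEAP1, the sensor that holds back the antioxidant factor NRF2, went from 105 ± 5.23 to 25.8 ± 0.942 CPM. Of 23 tested genes in the NRF2 list 9 were higher and 6 lower, led by ME1 (1.09 ± 0.10) and GCLC (1.09 ± 0.12). The transferrin receptor TFRC (-1.57 ± 0.065) and the zinc and iron importer SLC39A14 (-1.19 ± 0.067) fell. In the unfolded protein response 10 of 22 genes were lower and 2 higher, among them EDEM1 (-0.93 ± 0.080) and SYVN1 (-1.08 ± 0.11), which clear misfolded proteins from the endoplasmic reticulum.

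The largest falls outside the classical cytokines were led by genes of secreted and surface proteins. PI3, the elastase inhibitor elafin, was at 10.7, 13.7 and 12.3 CPM in RAS and 0.652, 0.439 and 0 CPM in RAS/shDOT1L (log2 change -5.03 ± 0.41). As for the rises, the choice of these genes required that the libraries do not overlap. PI3 passed the low-count filter only through the RAS libraries, so a change had to be found. PTGS2 (COX-2), which makes prostaglandins, fell from 105, 108 and 98.0 to 3.39, 4.14 and 3.91 CPM, close to control (4.23, 4.69 and 4.47 CPM). ACKR3, an atypical chemokine receptor, went below control, from 13.9 ± 1.94 to 0.575 ± 0.182 CPM with 5.65 ± 0.847 CPM in control. Like PI3, it passed the filter only through the RAS libraries. IVL, a structural protein of keratinocytes, had a log2 change of -4.15 ± 0.22 and THBD (thrombomodulin) one of -3.11 ± 0.25. The EGF receptor ligand EREG went from 178 ± 3.19 to 19.4 ± 2.86 CPM, still above the 11.4 ± 0.249 CPM of control. SLC16A6, SLCO4A1 and RENBP had log2 changes between -3.53 and -3.09, and CDCP1 went from 1182 ± 36.1 to 146 ± 5.99 CPM. The antisense transcript GREM1-AS1 (-3.47) overlaps GREM1, a BMP antagonist that fell as well (-1.42 ± 0.048), and their reads cannot be told apart where the counting did not use strand.

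Several proteases that cut the matrix fell steeply. Of 23 tested metalloproteinases and inhibitors (28 listed), 13 were lower and 5 higher, with 11 over 1.5-fold lower (median log2 change -0.72, GC-adjusted -0.45). The stromelysin MMP3 was at 3459, 3752 and 3528 CPM in RAS and 405, 384 and 392 CPM in RAS/shDOT1L. It remained far above control (15.3, 16.0 and 18.7 CPM) after a fall of 8.98-fold. The collagenase MMP1 fell from 6406 ± 128 to 1304 ± 18.3 CPM (control 89.2 ± 2.34), the membrane protease MMP14 from 3473 ± 18.4 to 985 ± 54.2 CPM, and MMP10 by 8.68-fold. ADAMTS5, an aggrecanase, dropped from 24.8 ± 1.77 to 2.51 ± 0.764 CPM although control cells held 54.0 ± 0.673 CPM. The inhibitor TIMP3 rose from 173, 185 and 173 to 719, 738 and 742 CPM, past the 571 ± 8.27 CPM of control (log2 change 2.07 ± 0.048). In the plasminogen system, the inhibitor SERPINB2 fell from 442 ± 16.7 to 70.4 ± 3.87 CPM, and the activator PLAU (-0.96 ± 0.036) and its receptor PLAUR (-1.09 ± 0.053) fell as well. The plasminogen-binding pair ANXA2 and S100A10 rose, by 1.23 ± 0.032 and 0.74 ± 0.047 log2 units.

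Genes of the basement membrane and of proteoglycans were lower on balance, and fibrillar collagens split. Of 28 basement membrane and elastic fibre genes 17 were lower and 1 higher without offset, and 14 and 5 GC-adjusted. The heparan sulphate proteoglycan AGRN fell from 518 ± 23.4 to 171 ± 9.27 CPM (log2 change -1.58 ± 0.053, GC-adjusted -1.11), and COL18A1 had -1.64 ± 0.065 (-1.17 GC-adjusted). LAMB2, COL4A2 and the higher member FBN2 had log2 changes of -1.02, -0.75 (GC-adjusted -0.36) and 0.62. Fibrillar collagens and their processing enzymes split 11 higher to 12 lower, and 13 to 8 GC-adjusted. COL6A2 went from 6418 ± 84.6 to 2374 ± 79.7 CPM and COL6A1 from 5152 ± 123 to 2565 ± 50.8 CPM, with log2 changes of -1.42 and -0.99 that were -0.94 and -0.54 GC-adjusted. LOX, which crosslinks collagen, rose from 199, 204 and 206 to 601, 631 and 622 CPM. Of 20 tested proteoglycan, tenascin and hyaluronan genes (28 listed) 13 were lower and 4 higher. The hyaluronan synthase HAS2 fell from 58.7 ± 5.86 to 6.17 ± 1.52 CPM, under its control level of 11.7 ± 0.357 CPM, and fibronectin (FN1) by 1.59-fold. SPARC, an abundant collagen-binding protein, rose from 2429.8 ± 62.5 to 4459 ± 52.3 CPM.

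Output genes of the RAS-MAPK pathway were lower on balance, beside the lower HRAS given above. Of 30 tested feedback and output genes, 18 were lower and 4 higher (median log2 change -0.54, GC-adjusted -0.46). IER3 was at 1912, 2017 and 1969.9 CPM in RAS and 499.6, 495 and 485 CPM in RAS/shDOT1L (log2 change -1.98 ± 0.039). The feedback inhibitors SPRY4 and SPRY2 had log2 changes of -1.76 ± 0.057 and -2.05 ± 0.076, and PHLDA1 one of -1.02 ± 0.051. Other members rose, namely the ERK phosphatase DUSP5 (96.1 ± 8.07 to 182 ± 5.61 CPM) and the ephrin receptor EPHA4 (11.1 ± 2.34 to 33.8 ± 2.37 CPM). RRAS2, a RAS-related GTPase, rose by 1.34 ± 0.095 log2 units. Receptor tyrosine kinases and their ligands split, with 13 of 30 tested (36 listed) higher and 11 lower. NRG1, a ligand of the ERBB receptors, fell from 254 ± 9.81 to 67.7 ± 0.938 CPM.

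Of the developmental signalling lists, those of NOTCH, of TGF-beta and BMP and of the IGF-binding proteins were lower on balance, and that of WNT split. In the NOTCH list 7 of 15 tested genes (18 listed) were lower and 2 higher (median log2 change -0.98, GC-adjusted -0.67), with the ligand DLL4 at -2.07 ± 0.14, the receptors NOTCH1 at -1.38 ± 0.12 and NOTCH3 at -1.12 ± 0.11 and the target HES4 at -1.71 ± 0.15. GC-adjusted, these were -1.76, -0.93, -0.67 and -1.24. In the TGF-beta and BMP list 9 of 24 were lower and 5 higher (12 and 3 GC-adjusted), led by BMP2, which went from 395 ± 6.48 to 68.8 ± 5.82 CPM, with TGFB1 at -0.96 ± 0.054 (GC-adjusted -0.51) and the inhibitor SMAD7 at -1.23 ± 0.14. The WNT list split 5 higher to 5 lower of 22 tested (27 listed), and 7 to 5 GC-adjusted. In it the ligands WNT5A (-0.97 ± 0.045) and WNT7B (-1.51 ± 0.076) and the receptor FZD8 (-1.92 ± 0.091) were lower. The antagonist SFRP1 was among the higher genes (1.05 ± 0.073). Of the IGF-binding proteins and stanniocalcins 7 of 10 were lower and 2 higher. IGFBP3 rose from 615, 614 and 592 to 2468, 2397 and 2426 CPM, and the stanniocalcin STC1 fell from 2661 ± 65.4 to 495 ± 14.0 CPM.

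Transcription factors of the lung mesenchyme were lower in 10 of 20 tested cases (24 listed) and higher in 4 (median log2 change -0.54, GC-adjusted -0.60). TBX2 fell from 427 ± 15.8 to 152 ± 3.71 CPM, and TBX3 and FOXF1, which act in the developing lung mesenchyme, had log2 changes of -0.90 ± 0.065 and -0.82 ± 0.053. OSR1 (1.63 ± 0.23) and ZEB1 (0.80 ± 0.066, GC-adjusted 0.49) rose. Among HOX and MEIS genes, which DOT1L is known to keep active in some leukaemias, 6 of 15 tested (20 listed) were higher and 2 lower. HOXA5, which passed the filter through the RAS/shDOT1L libraries, was at 0.536, 0.121 and 0.447 CPM in RAS and 5.15, 3.89 and 3.72 CPM in RAS/shDOT1L, with 1.43 ± 0.424 CPM in control, and HOXB4 had a log2 change of -1.11 ± 0.18.

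Genes linked to DOT1L and to other chromatin marks were called in both directions. Of 14 tested partners of DOT1L and genes linked to its mark, 3 were higher and 5 lower, DOT1L itself among them, against 26.3% and 26.4% of all tested genes (1 and 4 GC-adjusted, median log2 change 0.033). MLLT3 (AF9), which recruits DOT1L to transcribed genes, rose from 9.02 ± 1.96 to 17.1 ± 3.99 CPM (log2 change 0.94 ± 0.20, GC-adjusted 0.59). Polycomb and H3K27 genes were lower in 7 of 20 cases (35%) and higher in 2 (10%). GC-adjusted, 5 were lower and 1 was higher, where 23% and 23.7% of all tested genes were. Among the lower were the chromodomain protein CBX6 (-1.52 ± 0.067), the methyltransferase EZH1 (-1.03 ± 0.20) and the demethylase KDM6B (-0.79 ± 0.092, GC-adjusted -0.38). Histone genes split 7 higher to 6 lower of 16 tested. H2AZ1, a variant histone of promoters, rose from 33.0 ± 3.36 to 80.0 ± 1.26 CPM. H2AX, the variant that is phosphorylated at DNA breaks, had a log2 change of -1.19 ± 0.088 (GC-adjusted -0.72).

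Genes of cell division were lower on balance. Of 27 tested mitosis and spindle genes 12 were lower and 2 higher (median log2 change -0.85, GC-adjusted -0.99), and of 29 DNA replication genes 14 were lower and 5 higher (11 and 1 GC-adjusted). CDC20, which drives exit from mitosis, fell from 10.9, 13.1 and 11.3 to 3.65, 3.64 and 3.53 CPM, and PLK1 from 11.5 ± 2.91 to 3.55 ± 0.892 CPM. PRC1, of the central spindle, had a log2 change of -2.43 ± 0.37, and the ribonucleotide reductase subunit RRM2 one of -1.89 ± 0.17. PCNA, the clamp of the replication fork, rose from 19.9 ± 2.16 to 51.2 ± 4.69 CPM. Cyclin D2 (CCND2) rose by 1.78 ± 0.11 log2 units, and CDK4 (-0.78 ± 0.073) and E2F4 (-0.91 ± 0.086) fell. The arrest genes CDKN1A (p21) and CDKN2A (p16) had log2 changes of 0.35 ± 0.031 (GC-adjusted 0.62) and 0.20 ± 0.088. CDKN2A did not pass without offset (adjusted p = 0.0523) and passed GC-adjusted (0.49, adjusted p = 2.73e-05). It passed under 8 of the 17 alternatives, namely the GC offset with and without block, GC and length (0.22), limma-voom (0.20), library size as the only scaling (0.27), a minimum of 1 CPM (0.21), and without RAS replicate 2 (0.26) or RAS/shDOT1L replicate 1 (0.27). LMNB1, the lamin whose loss marks senescence, was at 4.77, 3.15 and 3.32 CPM in RAS and 0.717, 1.69 and 2.14 CPM in RAS/shDOT1L. Its fall of 2.43-fold (adjusted p = 0.0154) was no longer called without RAS replicate 1 (log2 change -1.07, adjusted p = 0.0974) or without RAS/shDOT1L replicate 1 (-0.94, adjusted p = 0.068).

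Targets of p53 rose more often than they fell, 13 to 5 of 26 tested (median log2 change 0.21, GC-adjusted 0.37). CCNG1 rose from 76.2 ± 4.88 to 246 ± 5.21 CPM and GADD45A from 34.9 ± 3.36 to 119.7 ± 9.76 CPM. The stress cytokine GDF15 fell from 788 ± 34.3 to 186 ± 10.4 CPM, and the death receptor TNFRSF10B from 308 ± 12.2 to 71.3 ± 0.792 CPM. Genes of apoptosis split 8 to 9 of 23. BAK1, which permeabilises the mitochondrial membrane, fell from 109, 115 and 105 to 23.5, 25.9 and 19.6 CPM, while the BH3-only protein PMAIP1 (1.69 ± 0.073) rose. XRCC4, of end joining, rose from 2.92 ± 0.387 to 15.8 ± 0.905 CPM.

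Cytokine and NF-kB genes, given briefly, were mostly lower. Of 18 tested SASP cytokines and chemokines (23 listed) 15 were lower and 2 higher, with a median log2 change of -2.64 (GC-adjusted -2.76). CSF1, the growth factor of macrophages, went from 24.0, 24.2 and 22.9 CPM in RAS to 59.9, 63.9 and 66.3 CPM in RAS/shDOT1L, and CCL2, a chemokine for monocytes, from 1.87 ± 0.490 to 7.28 ± 0.699 CPM. Both rose (1.44 ± 0.10 and 1.98 ± 0.32 log2 units), and control held 32.1 ± 3.78 and 6.78 ± 1.53 CPM. Of 21 tested NF-kB subunits, inhibitors and targets 17 were lower. The 1 higher gene was NFKBIE, an inhibitor of NF-kB (0.40 ± 0.099, GC-adjusted 0.74), while the inhibitor NFKBIA had -1.50 ± 0.074 and the kinase IRAK2 -2.19 ± 0.076. The transcription factor CEBPB fell from 391 ± 9.45 to 148 ± 1.87 CPM, a log2 change of -1.39 ± 0.052 that was -0.91 GC-adjusted. STING1, the adaptor of cytosolic DNA sensing, fell from 103 ± 9.26 to 43.6 ± 3.80 CPM. Interferon-stimulated genes split 7 to 7 of 22 tested (31 listed), with GBP1 higher (1.97 ± 0.098) and IRF7 lower (-2.04 ± 0.32).

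Few markers of other cell types passed the filter. Of 15 epithelial markers 6 were tested and 4 were higher, all of them keratins of simple epithelia. KRT18 rose from 77.6, 72.4 and 73.7 to 221, 222 and 218 CPM, KRT8 from 17.3 ± 1.82 to 64.0 ± 3.99 CPM, KRT19 from 12.4 ± 4.24 to 48.9 ± 7.15 CPM and KRT7 from 4.26 ± 1.14 to 28.4 ± 1.93 CPM. Control cells held 115 ± 1.62 CPM of KRT19 and 2.67 ± 0.397 CPM of KRT7. The defining genes KRT14, ESRP1, SFTPC and NKX2-1 had no count in the 6 libraries, and EPCAM and CDH1 stood under the filter. The summed level of the list was 119 to 129 CPM in RAS, 366 to 389 CPM in RAS/shDOT1L and 263 to 284 CPM in control. Of 12 skeletal and cardiac muscle markers 3 were tested and 3 were higher. Their summed level was 0.787 to 1.91 CPM in RAS, 16.8 to 19.8 CPM in RAS/shDOT1L and 7.38 to 8.78 CPM in control. TNNT2, cardiac troponin T, had 0, 0 and 2 counts in the RAS libraries and 129, 168 and 135 in the RAS/shDOT1L libraries, and NPPB, a natriuretic peptide, 4, 2 and 3 and 77, 100 and 104 counts. Both passed the low-count filter only through the RAS/shDOT1L libraries, so that a change had to be found, and MYOD1, MYOG, MYH1, TNNI1 and NPPA had no count in the 6. Of 14 markers of fat, cartilage and bone 6 were tested, 2 were higher and 1 lower. The adipocyte regulator PPARG rose from 4.66 ± 1.11 to 20.95 ± 5.66 CPM and ALPL of bone from 1.04 ± 0.736 to 5.54 ± 2.22 CPM, with ADIPOQ, CEBPA, PLIN1, SP7 and BGLAP at 0. COL10A1, a collagen of hypertrophic cartilage, fell from 7.28 ± 1.20 to 0.957 ± 0.447 CPM. The summed level of that list was 63.9 to 72.5 CPM in RAS, 70.5 to 90.7 CPM in RAS/shDOT1L and 99.4 to 105 CPM in control. Of 10 endothelial markers 6 were tested and 2 were lower. The angiopoietin receptor TEK fell from 61.1 ± 1.43 to 23.5 ± 2.37 CPM. The summed level of the endothelial list was 91.1 to 95.8 CPM in RAS, 41.01 to 49.6 CPM in RAS/shDOT1L and 65.9 to 72.9 CPM in control. Of 12 leukocyte markers 3 were tested and 1 was lower, and CD68, ITGAM and TYROBP had no count in either group. Of 12 neural markers 3 were tested and 1 was lower. Of the 12 fibroblast markers, all tested, 4 were higher and 5 lower, S100A4 (1.66 ± 0.083) and THY1 (0.71 ± 0.057) among the former. The part of these markers in other results was not tested.

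The remaining lists split, or changed their balance with the fit. Proteasome subunits were higher in 14 of 26 cases and lower in 6, but in 5 and 4 with GC and length, and of 30 genes of vesicle coats and translocation into the endoplasmic reticulum 17 were higher and 7 lower, or 12 and 8 GC-adjusted. Hypoxia-inducible genes were 13 higher to 7 lower of 21, or 9 to 7 GC-adjusted. Mitochondrial ribosomal proteins were 7 higher to 3 lower of 20, cytosolic chaperones 9 to 5 of 21, and the integrated stress response 8 to 6 of 22. RAS and RAF family genes were 5 higher to 6 lower of 20, double-strand break repair 7 to 4 of 27, nuclear lamina genes 4 to 4 of 14, amino acid transporters 4 to 7 of 18, ion channels 9 to 7 of 22, metal-handling genes 4 to 5 of 15 and plasminogen and serpin genes 6 to 9 of 15. Single members still moved far. The mitochondrial chaperone HSPD1 fell from 208 ± 4.94 to 96.7 ± 5.52 CPM, the amino acid transporter SLC43A2 from 6.75 ± 1.45 to 1.78 ± 0.483 CPM and the potassium channel KCNJ15 from 37.2 ± 3.81 to 5.86 ± 1.09 CPM. The oxygen-sensing prolyl hydroxylase EGLN3 rose from 1.75 ± 0.252 to 7.06 ± 1.05 CPM, the lamin B receptor LBR, also a sterol reductase, from 5.12 ± 0.759 to 22.9 ± 2.33 CPM and the metallothionein MT1E from 36.0 ± 2.05 to 88.1 ± 14.3 CPM.

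A few genes had no count in 1 group. TMEM40, CES1P2, SCML2, PSORS1C1 and LINP1 had none in the 3 RAS libraries, and with a floor of 3 counts over the group were at least 28.4-fold, 25.6-fold, 19.3-fold, 17.3-fold and 17.3-fold higher in RAS/shDOT1L. SHH, the hedgehog ligand, had none in RAS/shDOT1L and was at least 18.1-fold lower. Their levels in the other group were low, between 1.06 and 1.74 CPM, and some spread widely (SCML2 1.18 ± 0.677, SHH 1.15 ± 0.653 CPM). STATH had none in RAS either, but its 111 counts in RAS/shDOT1L all came from replicate 1, and it did not pass the filter. The floor covers counting error only. All these genes were chosen for having no count in 1 group and a set minimum level in the other, so a large fold was fixed by the choice.

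In reads gained or lost, a few abundant genes dominated. The largest gains in mean CPM were those of ACTB (13882 ± 185 to 20232 ± 1128), EEF1A1, ANXA2 (2356 ± 59.0 to 5473 ± 170.1), COL1A1 (7779 ± 133 to 9992 ± 277, log2 change 0.38 and 0.76 GC-adjusted), SPARC, IGFBP3, TPT1, TMSB10, TAGLN and ACTG2, genes of the cytoskeleton, translation and matrix. The largest losses were those of MMP1, MT-CO1, COL6A2, SPON2 (6149 ± 172 to 2567 ± 31.3, log2 change -1.24 and -0.78 GC-adjusted), MT-CO2, MMP3, MT-CO3, IL1B (2976 ± 24.7 to 326 ± 18.5), COL6A1 and MMP14. CPM is a share of reads that is not divided by transcript length, and these orders are of reads and not of molecules.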

How the data were processed

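RNA of IMR90 cells was enriched for poly(A) and sequenced with paired reads. The authors aligned it with STAR (release 2.6.1 in the submitters' processing notes) and deposited raw counts per Ensembl gene for each library. The annotation release and strand setting are not given in the sources used here. Symbols, positions, GC content and length came from GENCODE release 44 (93.5% of 48162 identifiers matched).

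Counts were tested with edgeR 4.0.16 (filterByExpr, TMM scaling, quasi-likelihood F test, Benjamini-Hochberg adjustment, threshold 0.05) on the RAS and RAS/shDOT1L libraries alone. CPM used TMM-scaled library sizes over all 12 libraries. Changes of over 1.5-fold were tested with glmTreat. GC adjustment smoothed each library's deviation over 20 bins of transcript GC into an offset, and 97.8% of tested genes had a GC value. Alternatives used DESeq2 1.42.0, limma 3.58.1, other scalings and filters, and each library left out. The fits were run on simulated data with few changed genes and an added smooth GC trend. There the trend made most calls of the fit without offset false, and the GC offset removed nearly all of these. The offset is built to remove such a trend, so this checks the code. It does not say how many calls are false in the real libraries.

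The members and lists were chosen with earlier results of these data known. Named genes were DOT1L and HRAS, the 15 largest rises and falls called in both fits with a mean of at least 10 CPM and no overlap, cytokines aside, up to 4 members of smallest p over 1.5-fold and 2 against the majority in each of 64 lists, the 10 largest gains and losses in CPM, genes with 0 counts in a group, and the study's genes. Not every gene so taken is printed, and some results are not reported here. Promoters are RefSeq windows of GRCh38.p14, the first listed for each gene. The libraries of the DOT1L OE group were not compared here.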

Additional observations from a re-analysis of the deposited data

How the results depend on the processing

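Of 13398 genes, 7058 passed, and the count lay between 6483 and 6774 when 1 library was left out, at 6986 with DESeq2, at 7188 with limma-voom, at 7583 in 1 fit over all 4 groups, at 6264 with the GC offset and at 6081 with GC and length. Equal replicate numbers did not deviate together (correlations 0.0055, 0.026 and 0.027), so they pair nothing. With the replicate number as a block 6871 genes passed, and 6126 with block and GC offset, and the block by itself changed no call of a named gene. The number over 1.5-fold higher, 1118, was 695 by the DESeq2 Wald test. The cause was not tested. For 201 genes with values above, 3403 of 3417 alternative values kept direction and side of the threshold. FLNA turned from -0.15 to 0.26 with the GC offset, 0.26 with block and GC offset and 0.37 with GC and length. DOT1L ranged from -2.95 to -2.87 and HRAS from -0.89 to -0.81 without 1 library. The labels do not identify the hairpin, and HRAS was lower in each RAS/shDOT1L library. Every RAS/shDOT1L library had the hairpin, less DOT1L and lower HRAS together, so their effects cannot be told apart in this design.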
